A study of Mus musculus with 7 samples.

Results

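The proteasome is the large protease that degrades proteins tagged with ubiquitin. Its 20S core is a stack of rings made of alpha and beta subunits, and the 19S particle caps the core, binds ubiquitinated proteins and unfolds them with a ring of ATPases. The beta subunits Psmb5, Psmb6 and Psmb7 carry the proteolytic sites. Under interferon gamma, and constitutively in immune cells, Psmb8, Psmb9 and Psmb10 take their places in newly assembled cores, which gives the immunoproteasome known for making peptides for MHC class I presentation.

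The genes were those whose name in the array design is Psm, a letter from a to g and a digit, on probes that are no control. The rule found 49 gene names on 94 probes, of 37074 gene names on 56605 probes. The name Psmc3ip also fits and belongs to a gene that encodes a partner of meiotic recombinases and no proteasome subunit, so it is described apart and left out of the counts of members. Of the other members, 47 had a probe that stood well above background in Cy5 throughout at least 1 genotype, and these were tested. Psmb11, the thymus form of Psmb5, did not stand well above background on any of the 7 arrays and was not tested.

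Whole abdominal mammary glands, with the lymph nodes excised, came from nulliparous FVB females of 20 to 25 weeks in diestrus. Of these, 3 mice were wild-type. The other 4 were PRA transgenic and carried GAL-4 under a CMV promoter together with a GAL-4-responsive transgene for the A form of the progesterone receptor, a driver that is not limited to mammary epithelium. Each animal was hybridized on its own array in Cy5 against Universal Mouse Reference RNA in Cy3, a pool from 11 mouse cell lines that include T lymphocyte, B lymphocyte and alveolar macrophage lines. Every value below is a log2 ratio of gland to reference unless it is called a log2 fold change, which is PRA transgenic minus wild-type. In these bulk samples, fewer cells of a type and less RNA per cell cannot be told apart.

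A single slide held all 7 arrays, and its row 1 was wild-type and its row 2 PRA transgenic, so genotype and slide row cannot be told apart. Between 62.7% and 66.2% of probes were well above background in Cy5 on the wild-type arrays and between 56.7% and 60.2% on the PRA transgenic arrays. In Cy3, which carried the same reference RNA on every array, these shares were 53.2% to 54.0% and 47.2% to 50.6%. The lower share on the PRA transgenic arrays was therefore not particular to the gland RNA. No spot of a member was saturated. The markers of white adipocytes and of luminal and basal epithelium lay above the reference on every array as list means. Not every epithelial marker did so, with Krt8 from -0.63 to 0.73 and Trp63 from -0.22 to 0.28. The luminal mean includes Prlr, for which the reference was well above background on only 1 of the 7 arrays. Wild-type replicate 1 stood apart by lymphocyte markers, with a mean of 0.71 over 4 B cell genes, whereas the other arrays lay between -1.46 and -0.87. Skeletal muscle markers had means of 1.83, 2.75 and 2.72 on wild-type replicates 1 and 3 and PRA transgenic replicate 4, and lay below 0 on the other arrays.

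To see the promoters of the subunits that exchange with each other, the 250 bases before the RefSeq start of Psmb8 and Psmb9 are shown beside those of Psmb5 and Psmb6, the subunits they replace (build GRCm38.p6, 5′ to 3′ on the strand of the gene). Capitals mark any match, on either strand, to TTCNNNGAA, the letters of an interferon gamma activated site, to GAAANNGAA, the core letters of an interferon-stimulated element, or to TGACNNNGC, the letters of an antioxidant response element, the site of the NRF family. None of these matches overlap.
Psmb8, chr17:34197945-34198194, plus strand: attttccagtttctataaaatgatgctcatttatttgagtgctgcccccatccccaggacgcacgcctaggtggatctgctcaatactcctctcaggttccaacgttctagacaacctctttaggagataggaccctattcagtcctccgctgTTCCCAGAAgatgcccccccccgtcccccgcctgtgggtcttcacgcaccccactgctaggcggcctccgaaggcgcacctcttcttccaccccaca
Psmb5, chr14:54617996-54618245, minus strand: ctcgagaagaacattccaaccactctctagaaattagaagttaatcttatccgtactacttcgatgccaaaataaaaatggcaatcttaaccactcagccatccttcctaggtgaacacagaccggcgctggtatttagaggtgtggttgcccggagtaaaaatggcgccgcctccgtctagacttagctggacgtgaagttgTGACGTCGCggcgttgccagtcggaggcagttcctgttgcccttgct
Psmb9, chr17:34187331-34187580, minus strand: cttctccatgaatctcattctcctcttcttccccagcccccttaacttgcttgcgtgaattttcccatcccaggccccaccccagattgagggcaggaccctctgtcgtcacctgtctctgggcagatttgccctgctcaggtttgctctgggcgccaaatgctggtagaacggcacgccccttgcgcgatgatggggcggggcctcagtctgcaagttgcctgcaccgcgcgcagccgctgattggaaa
Psmb6, chr11:70525107-70525356, plus strand: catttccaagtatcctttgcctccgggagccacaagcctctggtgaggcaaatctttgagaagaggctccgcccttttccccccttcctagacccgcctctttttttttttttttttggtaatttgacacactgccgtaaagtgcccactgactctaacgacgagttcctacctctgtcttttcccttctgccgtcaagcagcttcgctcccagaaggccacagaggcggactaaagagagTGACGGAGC

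The match in Psmb8 starts 97 bases before the start, that in Psmb5 47 bases and that in Psmb6 9 bases before it. The Psmb9 window held none of the 3 motifs, and neither did the Psmb10 window. Promoter windows of 300 bases, which also take in the first 50 bases after the start, were given for 40 members. Of the 37 other than Psmb8, Psmb9 and Psmb10, 2 held TTCNNNGAA (Psmd2 and Psmg1), 7 held GAAANNGAA and 6 held TGACNNNGC (Psmb5, Psmb6, Psmc6, Psmd9, Psmd12 and Psme4). Over all 32851 windows these motifs were held by 8.3%, 8.56% and 12.4%. A match is a string of letters and not a shown binding site. In the same build Psmb9 (chromosome 17, 34182030 to 34187330) and Psmb8 (34198195 to 34201454) flank Tap1, the peptide transporter of MHC class I loading, at distances of 0.226 and 0.97 kb. Psmb5 (chromosome 14, 54614120 to 54617995) lies 7.32 kb from Psmb11, and Psme1 (chromosome 14, 55578494 to 55581527) lies 5.91 kb from Psme2.

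No proteasome gene differed between genotypes after adjustment over all probes tested. Of the 47 members, 0 had an adjusted p under 0.05 (limma with Benjamini-Hochberg adjustment), against 0.00444% of 22504 genes. At an unadjusted p under 0.05, 0 members were higher in PRA transgenic glands, where 3.6% of all genes were, and 1 member was lower, where 4.35% of all genes were. The methods' t-test also found 1 member at that threshold and 0 after adjustment. By the direction of the mean alone 26 members were higher and 21 lower, and 52.7% of all genes were higher. The median log2 fold change was 0.020 over the 44 members other than Psmb8, Psmb9 and Psmb10, and 0.014 over all genes tested. This median moved to 0.11 without PRA transgenic replicate 4.

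**Figure D1:**
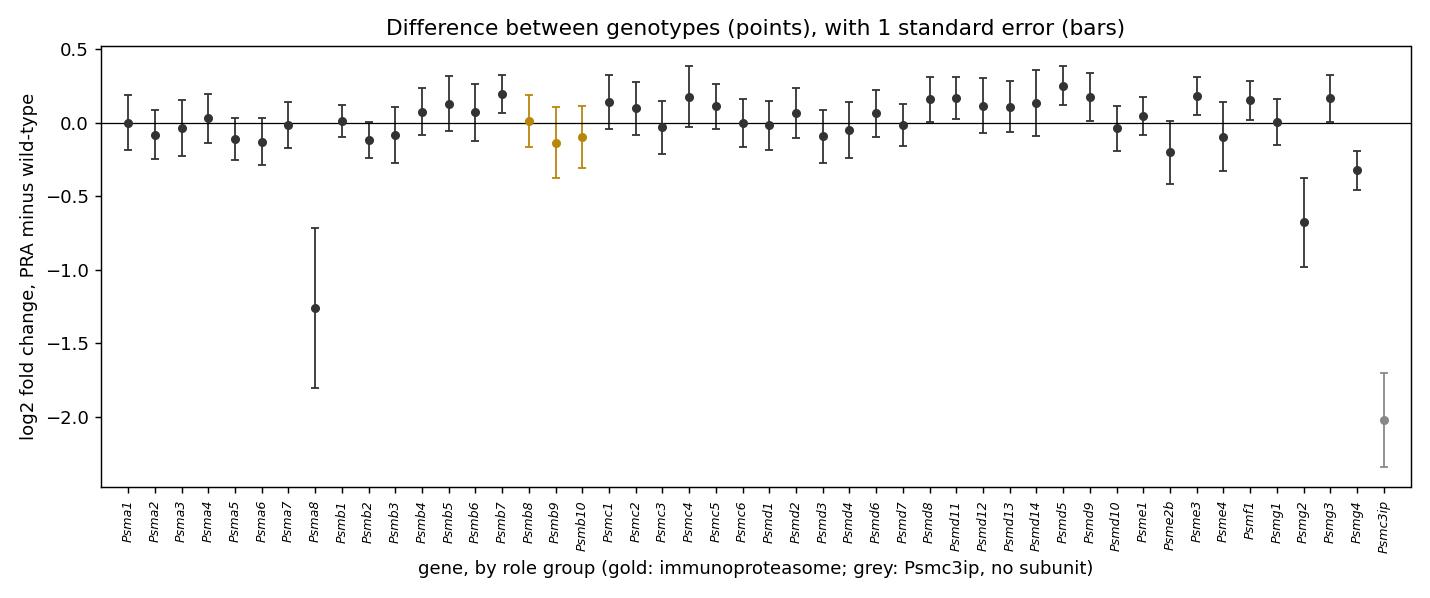
Log2 fold change of each tested gene, PRA transgenic minus wild-type (vertical axis), with genes on the horizontal axis by role group; points are the limma estimates and bars 1 standard error, over 3 wild-type and 4 PRA transgenic arrays. Most members lie near 0, and Psmc3ip, which is no subunit, lies lowest at -2.02.

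Among the members that form the core and its cap, all changes were small. The 7 subunits of the alpha ring, whose tails gate the entry to the core, had log2 fold changes from -0.13 (Psma6) to 0.029 (Psma4), and the lowest adjusted p among them was 0.859 (limma). The 4 beta subunits without a proteolytic site lay between -0.12 (Psmb2) and 0.074 (Psmb4). The 6 ATPases of the 19S base, which unfold substrates, lay between -0.032 (Psmc3) and 0.18 (Psmc4), and 4 of them were higher by mean. The 11 non-ATPase subunits of the 19S particle, among them the ubiquitin receptor Psmd4 and the deubiquitinase Psmd14, lay between -0.093 (Psmd3) and 0.17 (Psmd11). None of these 28 genes and none of the constitutive catalytic subunits passed an unadjusted p of 0.05, and the lowest was 0.172 (Psmb7, limma).

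Psmb5, the chymotrypsin-like subunit, had log2 ratios of -0.34, -0.63 and -0.37 in the wild-type glands and of -0.25, -0.18, -0.09 and -0.75 in the PRA transgenic glands (chromosome 14 of mm9, 55233161 to 55233220). The PRA transgenic values enclosed the wild-type values, and the mean was higher by 0.13 on the log2 scale (standard error 0.19; adjusted p = 0.888, limma). Psmb6, the caspase-like subunit, had 0.52, 0.77 and 0.58 in wild-type and 1.00, 0.54, 0.91 and 0.32 in PRA transgenic glands (chromosome 11, 70341093 to 70341152). Psmb7, the trypsin-like subunit, had -0.58, -0.67 and -0.54 and then -0.37, -0.24, -0.37 and -0.62 (chromosome 2, 38468966 to 38489385, a span that shows the probe to be split over exons). Of the PRA transgenic animals, 3 lay above every wild-type animal for Psmb7, and replicate 4 lay among the wild-type values. The log2 fold changes were 0.069 ± 0.19 for Psmb6 and 0.19 ± 0.13 for Psmb7 (standard error), with adjusted p of 0.953 and 0.708 (limma).

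The immunoproteasome subunits did not differ between genotypes beyond the spread of the animals either. Psmb8, which replaces Psmb5, had log2 ratios of 1.19, 0.81 and 1.25 in wild-type and of 1.42, 1.05, 0.99 and 0.93 in PRA transgenic glands (chromosome 17 of mm9, 34337771 to 34337830). Psmb9, which replaces Psmb6, had 1.36, 1.24 and 1.37 in wild-type and 1.85, 0.96, 0.93 and 1.02 in PRA transgenic glands (chromosome 17, 34319174 to 34319233). Psmb10, which replaces Psmb7, had 0.93, 1.02 and 0.64 in wild-type and 1.26, 0.53, 0.58 and 0.68 in PRA transgenic glands (chromosome 8, 108459677 to 108459736). For each of the 3 genes the highest of the 7 arrays was PRA transgenic replicate 1, and for Psmb9 the other 3 PRA transgenic arrays lay below every wild-type array. The log2 fold changes were 0.014 for Psmb8 (standard error 0.18, adjusted p = 0.991), -0.14 for Psmb9 (standard error 0.24, adjusted p = 0.912) and -0.098 for Psmb10 (standard error 0.21, adjusted p = 0.934, all limma). Without PRA transgenic replicate 1 they were -0.095, -0.36 and -0.27, and Psmb9 then had an unadjusted p of 0.0211 and an adjusted p of 0.51 (limma).

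Against the reference the same genes stood out. Psmb8, Psmb9 and Psmb10 lay above the reference on all 7 arrays, with means of 1.09 ± 0.21, 1.25 ± 0.32 and 0.81 ± 0.27 (SD, n = 7). With Psme2b they had the highest mean ratios among the members whose reference signal was measured, and the next was Psmb6 at 0.66 ± 0.24 (SD, n = 7). The ranges over arrays of Psmb10 and Psmb6 overlapped, so that these neighbours in the order did not differ beyond their spread. Of the 47 members, 20 lay above the reference on all 7 arrays and 15 below it on all 7, where 35.6% and 31.3% of all genes did. These ratios depend on what the cell lines of the pool express, and the dyes were not swapped on any array.

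**Figure D2:**
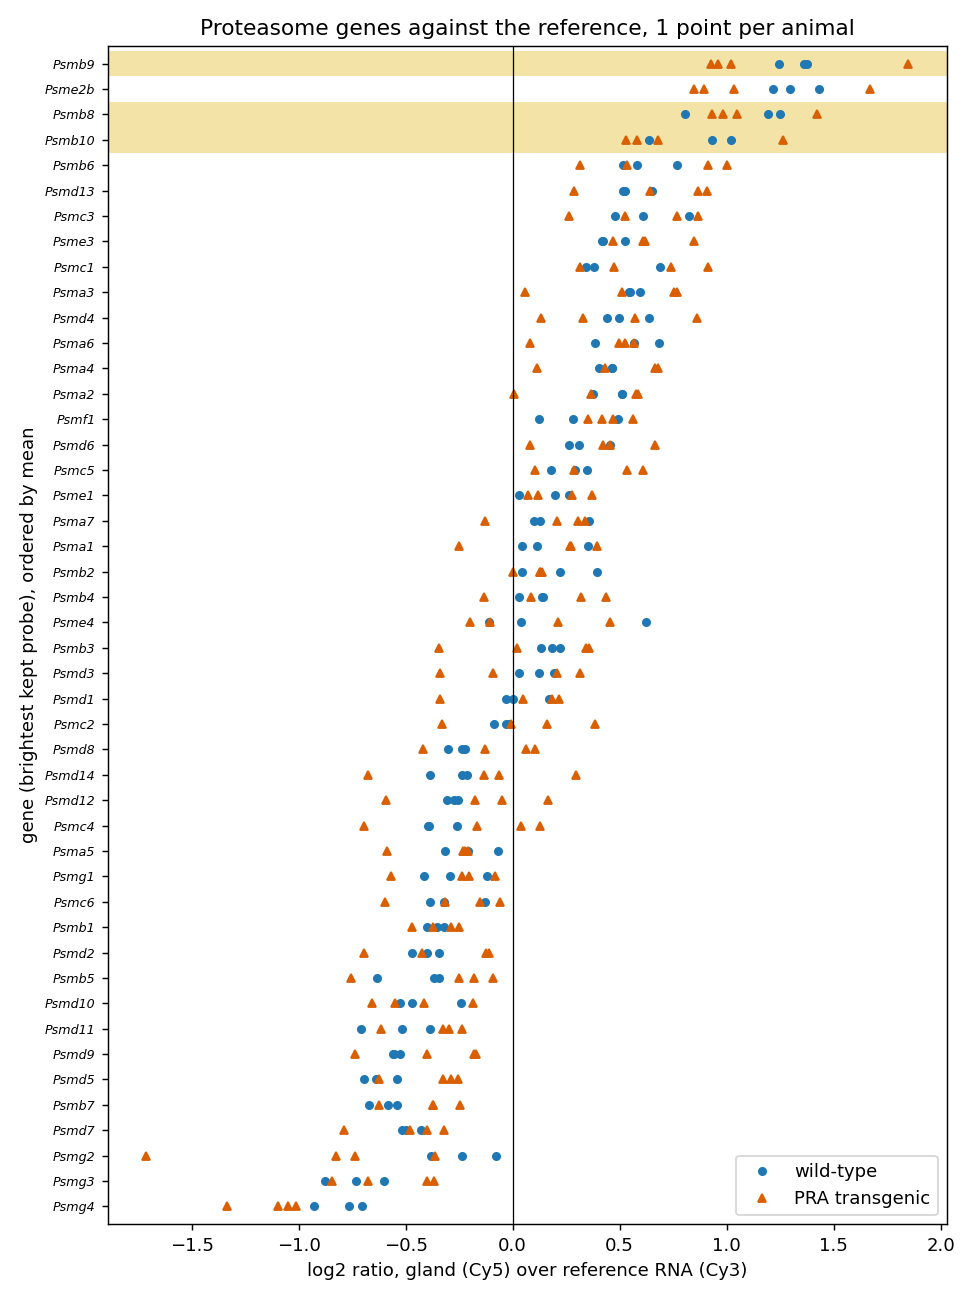
Log2 ratio of gland to reference (horizontal axis) for each tested member other than Psma8 (vertical axis, ordered by mean), with 1 circle per wild-type and 1 triangle per PRA transgenic animal and the immunoproteasome subunits shaded. Psmb8, Psmb9, Psmb10 and Psme2b form the upper end with every point above 0, and Psmg4 the lower end with every point below it.

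Set against the subunit it replaces on the same array, each immunoproteasome gene had the higher ratio on all 7 arrays. Each difference also depends on the level of both subunits in the reference pool. It does not compare their levels in the gland. In wild-type glands Psmb8 minus Psmb5 was 1.53 ± 0.088 (SD, n = 3), and in PRA transgenic glands it was 1.42 ± 0.31 (SD, n = 4). Psmb9 minus Psmb6 was 0.70 ± 0.20 (SD, n = 3) and 0.50 ± 0.37 (SD, n = 4), with the lowest array, PRA transgenic replicate 3, at 0.015. Psmb10 minus Psmb7 was 1.46 ± 0.26 (SD, n = 3) and 1.17 ± 0.38 (SD, n = 4). The mean of the 3 immunoproteasome genes minus the mean of the 3 constitutive genes was 1.30, 1.20 and 1.19 in wild-type glands, a spread of 0.058 (SD, n = 3). It was 1.39, 0.81, 0.68 and 1.23 in PRA transgenic glands, a spread of 0.34 (SD, n = 4). PRA transgenic replicates 2 and 3 were the low arrays, and replicate 4 lay within the wild-type values and replicate 1 above them. The difference between genotypes in this score was -0.20, smaller than the spread within the PRA transgenic group. It was -0.090 without PRA transgenic replicate 3 and -0.32 without replicate 1.

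**Figure D3:**
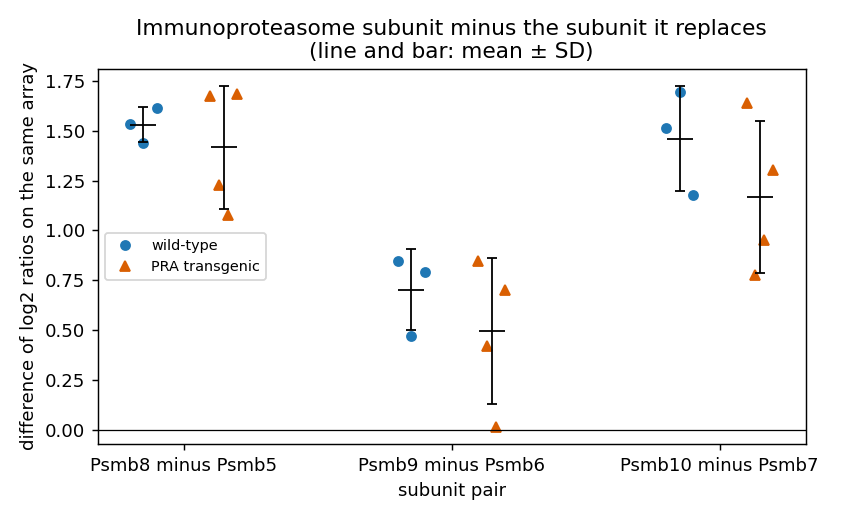
Log2 ratio of each immunoproteasome subunit minus that of the subunit it replaces on the same array (vertical axis), by subunit pair, with circles for wild-type and triangles for PRA transgenic animals, and the mean ± SD as a line and a bar. All points lie above 0, and the PRA transgenic points are spread more widely than the wild-type points for each pair. The values are relative to the reference and do not compare subunit levels in the gland.

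The PA28 activator opens the core and is, like the immunoproteasome, known to be induced by interferon gamma. Its alpha subunit Psme1 had log2 ratios of 0.26, 0.03 and 0.20 in wild-type and 0.37, 0.28, 0.12 and 0.07 in PRA transgenic glands (chromosome 14 of mm9, 56200194 to 56200253), a log2 fold change of 0.046 (adjusted p = 0.953, limma). No probe was named Psme2, the gene of the beta subunit. Psme2b, a near-identical gene copy whose signal was not separated from that of Psme2 here, had 1.30, 1.43 and 1.22 in wild-type and 1.67, 0.85, 1.04 and 0.89 in PRA transgenic glands (chromosome 11, 48758875 to 48758934). As for Psmb9, 3 of the 4 PRA transgenic animals lay below every wild-type animal and replicate 1 above them. The log2 fold change of Psme2b was -0.20 (standard error 0.22, adjusted p = 0.83), and without PRA transgenic replicate 1 it was -0.39 (adjusted p = 0.513, limma). A second, dimmer probe of Psme2b gave -0.031 with a mean ratio of 0.48 against 1.20, and the median over both probes was -0.12, so that the size rests on the choice of probe. Psme3 (PA28 gamma, a nuclear activator) and Psme4 (PA200) changed by 0.18 and -0.095, and the inhibitor Psmf1 by 0.15, none with an unadjusted p under 0.05.

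The chaperones that assemble the core held the only member past the unadjusted threshold. Psmg4 had log2 ratios of -0.93, -0.70 and -0.76 in wild-type and of -1.05, -1.10, -1.01 and -1.34 in PRA transgenic glands (chromosome 13 of mm9, 34269918 to 34269977). The groups did not overlap, which held for 1 of 47 members and for 9.11% of all genes. The log2 fold change was -0.33 (standard error 0.13), with an unadjusted p of 0.0399 and an adjusted p of 0.53 (limma). Psmg4 missed the unadjusted threshold without wild-type replicate 2 or 3, without PRA transgenic replicate 1, 2 or 4, without wild-type replicate 1 and PRA transgenic replicate 4 together, with Cy5 alone, with array weights and with the replicate block. Psmg3, the partner of Psmg4 in the same chaperone pair, had a log2 fold change of 0.16 (adjusted p = 0.81, limma), and both genes lay below the reference on all 7 arrays.

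Psmg2, a chaperone of the alpha ring, had log2 ratios of -0.38, -0.24 and -0.08 in wild-type and of -0.82, -0.74, -1.71 and -0.36 in PRA transgenic glands on its brightest probe (chromosome 18 of mm9, 67813715 to 67813774). Only PRA transgenic replicate 4 lay among the wild-type values, and the probe fell by 0.68 on the log2 scale (standard error 0.30; adjusted p = 0.578, limma). Its other kept probes gave 0.16 and -0.0078, and the latter lies next to the first on the chromosome (67813776 to 67813835). The median over the 3 probes was -0.014, and the value therefore rests on the choice of probe. Psmd5, a chaperone of the 19S base, had the largest rise by mean among the members, 0.25 (standard error 0.13, adjusted p = 0.634, limma). Its wild-type values were -0.54, -0.69 and -0.64 and its PRA transgenic values -0.29, -0.32, -0.26 and -0.62, so that PRA transgenic replicate 4 was again the animal within the wild-type range.

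Psma8 encodes the alpha subunit that replaces Psma7 in germ cells. In Cy5 it stood well above background on the 3 wild-type arrays and on PRA transgenic replicates 2 and 4 alone, and the reference did not on any array, so its ratio to the reference is no measure of level. The log2 Cy5 intensity, not centered, was 4.42, 4.70 and 5.04 in wild-type and 3.00, 4.27, 3.10 and 4.95 in PRA transgenic glands. As a ratio its log2 difference was -1.26 (limma, standard error 0.55, adjusted p = 0.562), -0.69 in Cy5 alone and 0.019 with normexp and loess, a setting that changed the background correction and the normalization at once.

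The largest change on any probe found by the rule was that of Psmc3ip, which is no proteasome gene. Psmc3ip had log2 ratios of -0.35, -0.49 and 0.27 in wild-type and of -2.32, -1.99, -1.66 and -2.88 in PRA transgenic glands (chromosome 11 of mm9, 100953503 to 100953562). The second probe, at 100954219 to 100954278, had -0.48, -0.64 and 0.13 and then -2.58, -2.06, -1.85 and -2.68. The groups did not overlap on either probe. The log2 fold changes were -2.02 (standard error 0.32, adjusted p = 0.238) and -1.96 (standard error 0.27, adjusted p = 0.174, limma), and the first equals a level 4.06 times lower. Under 19 alternatives the first probe stayed between -2.21 and -1.79 with unadjusted p up to 0.00262 and adjusted p from 0.164 to 0.451.

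The standard subunits varied together across animals, and 1 PRA transgenic gland was low for almost all of them. Over the 31 standard subunits of the core and the 19S particle, the median log2 ratio was 0.042, 0.12 and 0.13 in wild-type and 0.27, 0.084, 0.31 and -0.33 in PRA transgenic glands. PRA transgenic replicate 4 was the lowest of the 4 PRA transgenic arrays for 31 of 31 of these genes and the lowest of all 7 arrays for 29. Among all 47 members it was the lowest of the 7 arrays for 34, where this held for 16.2% of all genes. Members are brighter than most genes, with a median log2 Cy5 of 12.4 against 8.20, and among genes of at least 10 it was the lowest array for 22.8%, and for 31 of 39 members. The count for the 31 subunits stayed at 28 or 29 with another background correction, with Cy5 alone and with quantile normalization, and was 27 with the median over probes. The pattern was looked for after the values had been seen. The highest of the 7 arrays was PRA transgenic replicate 1 or 3 for 24 of the 31 genes, and for 32.2% of all genes. With quantile normalization it was 21 of the 31.

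**Figure D4:**
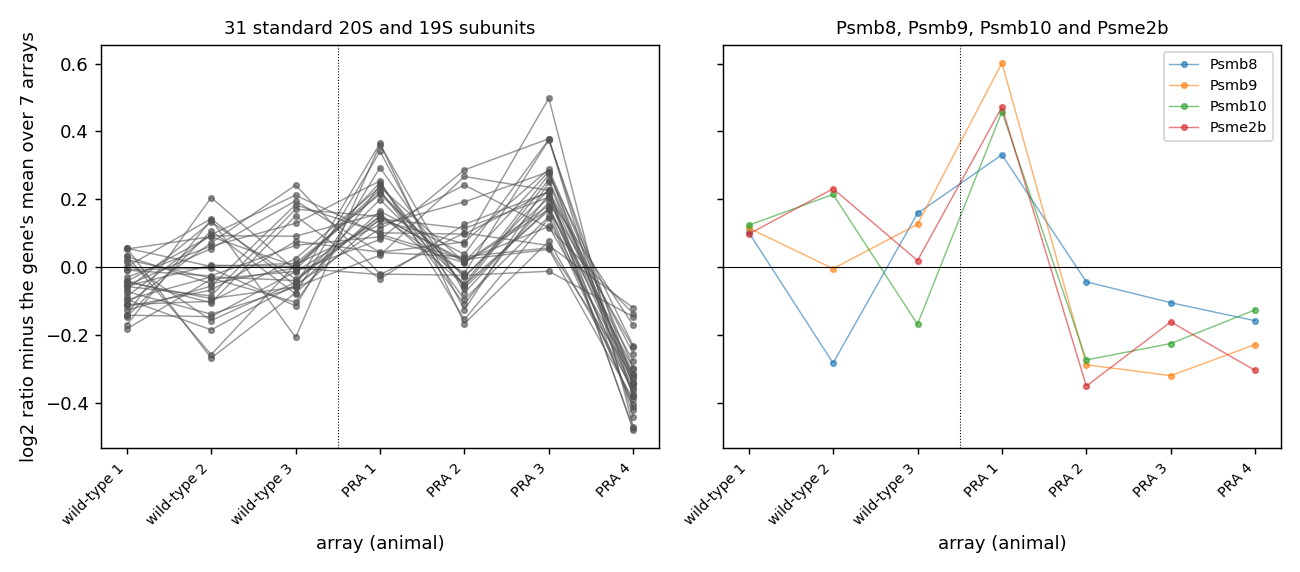
Log2 ratio of each gene minus its mean over the 7 arrays (vertical axis) by array (horizontal axis; lines join values of 1 gene, and a dotted line separates the genotypes), for the 31 standard subunits on the left and for Psmb8, Psmb9, Psmb10 and Psme2b on the right. The standard subunits are low together on PRA transgenic replicate 4, and the 4 genes on the right are high together on PRA transgenic replicate 1.

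The spread among animals of a genotype was unequal. The median SD over the 47 members was 0.11 among the 3 wild-type arrays and 0.27 among the 4 PRA transgenic arrays, against 0.23 and 0.25 over all genes tested. The PRA transgenic SD was the larger for 43 of 47 members and for 52.7% of all genes. Members varied together, and PRA transgenic replicate 4 was the lowest PRA transgenic array for 40 of the 47. The count is therefore not made of independent genes and does not measure the spread of a genotype. How much of it rests on replicate 4 was not tested. Psmb8, Psmb9 and Psmb10 did not share the low array, since PRA transgenic replicate 4 was the lowest of the 7 for 0 of these 3 genes. Macrophage markers were highest on PRA transgenic replicate 4, with a mean of 2.14 over 6 genes against 1.14 to 1.71 on the other arrays, and skeletal muscle markers were high on it and on wild-type replicates 1 and 3, as given above. The part of either list in the low values was not tested.

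Genes of the interferon gamma axis were set beside the immunoproteasome because interferon gamma is its known inducer. Of 20 genes on the list 19 were tested, of which 0 were higher and 2 lower at an unadjusted p under 0.05, and 0 at an adjusted p under 0.05 (limma). At the unadjusted threshold 3.6% of all genes were higher and 4.35% lower. The 2 lower genes were Irf8, a transcription factor of myeloid and B cells (log2 fold change -0.43, adjusted p = 0.476, limma), and Socs1, an inhibitor of interferon signaling (-0.63, adjusted p = 0.421, limma). The median log2 fold change of the list was -0.17. Ifng itself had 2.28, 2.63 and 3.33 in wild-type and 2.09, 2.24, 1.77 and 0.24 in PRA transgenic glands (log2 fold change -1.16, adjusted p = 0.571, limma). Its probe was kept through the wild-type arrays, since Cy5 was well above background on only 3 of the 4 PRA transgenic arrays. The reference was well above background on 0 of the 7 arrays, so the Ifng ratio is no measure of level. PRA transgenic replicate 1, the highest array for Psmb8, Psmb9 and Psmb10, was the highest of the 7 for 8 of the 19 genes and not for the other 11, and it was so for 18.6% of all genes. Of the 8, Gbp2, a guanylate-binding protein, had 3.49 there and 2.21 to 2.77 on the other arrays, and Nlrc5, the activator of MHC class I genes, had 2.15 there and 0.92 to 1.41 elsewhere. Tap1, which lies between Psmb9 and Psmb8, had 0.95 there and -0.29 to 0.73 elsewhere.

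Markers of immune cells were set beside the same genes, and their part in the immunoproteasome values was not tested. The mean over 8 T cell markers was 1.95 on wild-type replicate 1 and -0.21 to 0.38 on the other arrays, and the B cell marker Ms4a1 had -0.23 on wild-type replicate 1 and -5.26 to -3.85 elsewhere. The mean of Psmb8, Psmb9 and Psmb10 on wild-type replicate 1 was 1.16, beside 1.02 and 1.09 on the other wild-type arrays. On PRA transgenic replicate 1 it was 1.51, where the T cell mean was 0.061, the B cell mean -1.40 and the macrophage mean 1.14. White adipocyte markers were highest on that array for 5 of 6 genes, with a mean of 6.2 there and 5.4 to 5.8 elsewhere. In each of the other marker lists this held for 0 to 2 genes. The part of adipocytes in the immunoproteasome values was not tested either. The reference pool itself contains lymphocyte and macrophage lines, which bears on all these ratios. Among the 8 T cell markers Cd8a was the only one at an unadjusted p under 0.05 (log2 fold change -2.71, adjusted p = 0.462, limma), where 4.35% of all genes were lower. Without wild-type replicate 1 its value was -1.69 (adjusted p = 0.578, limma), and the gene stood well above background in Cy5 on only 1 PRA transgenic array and in the reference on 0 of 7. No marker list held a gene with an adjusted p under 0.05.

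**Figure D5:**
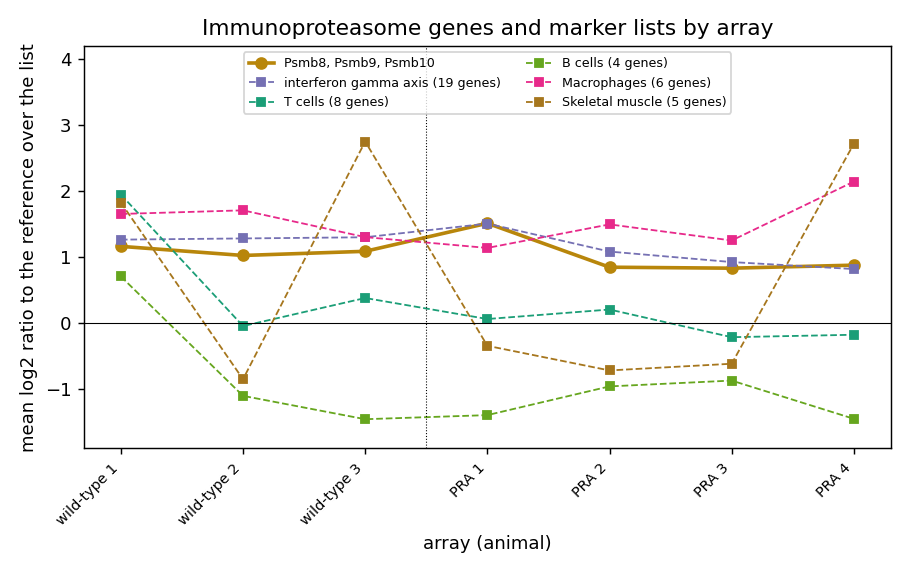
Mean log2 ratio of gland to reference (vertical axis) of Psmb8, Psmb9 and Psmb10 and of 5 gene lists, by array (horizontal axis; lines join values of 1 list, and a dotted line separates the genotypes). The immunoproteasome mean is highest on PRA transgenic replicate 1 at 1.51, whereas the T and B cell means are highest on wild-type replicate 1.

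The partners of the proteasome gave a similar picture. All 25 genes of a list of ubiquitin receptors, ubiquitin genes, deubiquitinases and assembly or control factors were tested, with a median log2 fold change of -0.0023 and 0 genes at an adjusted p under 0.05 (limma). At an unadjusted p under 0.05, 1 was higher and 2 were lower, where 3.6% and 4.35% of all genes were. Ubb, a polyubiquitin gene, had 0.68, 0.99 and 0.74 in wild-type and 0.72, 0.12, 0.25 and 0.36 in PRA transgenic glands (log2 fold change -0.44, adjusted p = 0.524, limma). AI314180, the older name of the adaptor Ecm29, had -0.31, -0.34 and -0.44 in wild-type and 0.12, -0.14, -0.01 and -0.19 in PRA transgenic glands, groups that did not overlap (log2 fold change 0.31, adjusted p = 0.53, limma). Pomp, the chaperone that matures the core, had 0.66, 0.78 and 0.60 in wild-type and 1.15, 0.67, 0.84 and 0.26 in PRA transgenic glands, with the highest and lowest arrays both PRA transgenic. Nfe2l1, the factor that raises proteasome genes when the protease is inhibited, changed by -0.26 (adjusted p = 0.711, limma).

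Several members had more than 1 probe, and the probes did not always move together. Of 26 genes with several kept probes, 12 had probes with log2 fold changes of both signs, and the median gap between the highest and the lowest was 0.15. Among the 38 second probes of members, 6 were higher in PRA transgenic glands at an unadjusted p under 0.05, where 6.35% of 11785 second probes of all genes were, and 0 were lower, where 4.72% were. The 6 probes belong to Psma3 (0.61), Psme4 (0.64), Psmd13 (0.39), Psmd4 (0.35), Psmg3 (0.33) and Psmb2 (0.32), and they were dim, with a median log2 Cy5 of 7.34 against 11.2 over all kept probes of members. For the Psme4 probe the reference stood well above background on only 3 of the 7 arrays, so that its ratio is no measure of a rise in the glands. Its channels, not centered, moved by -0.046 in Cy5 and -0.68 in Cy3. Cy5, not centered, moved by 0.35 for Psma3, 0.22 for Psmd13, 0.065 for Psmb2, 0.026 for Psmg3 and -0.081 for Psmd4. Cy3 moved by -0.18 (Psmd13) to -0.43 (Psmd4) on these probes. On the brightest probes of the same genes Cy3 moved down as well, by -0.12 (Psmd4) to -0.27 (Psmg3). Cy5 also moved down there, by -0.11 (Psmg3) to -0.35 (Psmb2). The channels without centering therefore do not tell which of them holds the change. The brightest probes of the 6 genes gave -0.039 (Psma3), -0.095 (Psme4), 0.11 (Psmd13), -0.051 (Psmd4), 0.16 (Psmg3) and -0.12 (Psmb2). For Psma3 the dim probe (chromosome 12 of mm9, 72080515 to 72080574) had -0.49, -0.57 and -0.23 in wild-type and 0.14, 0.18, 0.21 and 0.22 in PRA transgenic glands, whereas the bright probe (72095431 to 72095490) had 0.60, 0.54 and 0.55 and then 0.76, 0.51, 0.77 and 0.06. The dim probe separated the groups and the bright probe did not, and the adjusted p of the dim probe was 0.33 (limma). The dim probes of Psma3, Psmd4 and Psmg3 are assigned to Ensembl transcripts and those of Psmb2 and Psme4 to cDNA clones, not to the RefSeq transcript of the gene; that of Psmd13 is assigned to its RefSeq transcript.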

How the data were processed

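RNA of whole glands, from 3 wild-type mice and 4 that were PRA transgenic, was measured on 1 two-color Agilent array per animal. What the authors deposited per array is the output of Agilent Feature Extraction 12.0 (version per the submitters' processing notes), with processed intensity values that this software had corrected for background and for dye. The authors also deposited a table of log2 values, found to be the same log2 ratio centered for each probe on its median over the 7 arrays. Here the log2 ratio of Cy5 to Cy3 intensity was computed, leaving out controls and outliers and averaging repeated spots. A probe was kept where Cy5 exceeded background clearly on each array of either genotype, which held for 34289 of 56605 probes, and the brightest kept probe stood for its gene. The genotypes were compared by limma 3.58.1 (lmFit and eBayes, R 4.3.3), p-values were adjusted by Benjamini-Hochberg over all kept probes, and the steps were tested on simulated data. Background percentages are over the 22504 gene names that kept a probe.

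The animals are separate mice, and their number limits the precision. The members and lists were chosen with earlier results of these data known. The genes named are the catalytic subunits and the subunits they replace, the PA28 genes, members with an unadjusted p under 0.05, the 5 largest changes, and the 3 highest and 3 lowest against the reference. Alternatives changed the background correction (normexp, offset 50, and loess), the table (the series table), the filter, the channel (Cy5 alone), the normalization (quantile), the probe rule (median over probes) and the test (the methods' t-test, a trend with intensity, weights for arrays, a block for the replicate number), or left out each array. Probe positions are on mm9 as in the files. Promoter sequences and gene positions are from RefSeq (GRCm38.p6, with 40 members matched by symbol), and no position was converted between builds. Protein sequences were not used here. Some genes counted in the lists are not reported here by name.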

Additional observations from a re-analysis of the deposited data

Results flagged for a closer look

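In 51 groups of 4 PRA transgenic arrays (each of the 47 members, Psmc3ip and 3 summaries), 5 held an array far from the other 3. Chance gives about 1 in 20 such groups. The groups share the same 4 animals, members varied together and the summaries contain members, so the count is no measure of an excess. The gap to the nearest array, as a share of the range, was 0.932 for Psma5 (PRA transgenic replicate 4 at -0.59, the others from -0.23 to -0.21), 0.848 for Psma6 (replicate 4 at 0.08, the others from 0.50 to 0.57) and 0.913 for Psmb2 (replicate 4 at 0.00, the others from 0.13 to 0.14). It was 0.901 for Psmb9 (PRA transgenic replicate 1 at 1.85, the others from 0.93 to 1.02) and 0.933 for the mean of Psmb8, Psmb9 and Psmb10 (replicate 1 at 1.51, the others from 0.83 to 0.88).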

How the results depend on the processing

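Under 19 alternatives 0 members reached an adjusted p under 0.05. The count of members at an unadjusted p under 0.05, 1 as reported, was 2 with normexp and loess, with the strict filter on both channels, with array weights and with the replicate block, and 0 with Cy5 alone. The 2 were Psmg2 and Psmg4 in the first pair of these settings, and Psma8 and Psmg2, without Psmg4, with array weights and with the block. Leaving out single arrays gave 0 to 4, and the 4 came without PRA transgenic replicate 4 (Psma8 and Psmg2 lower, Psmc4 and Psmd5 higher). It was 3 without wild-type replicate 1 and PRA transgenic replicate 4 together, a setting chosen after seeing the data. Psma8 is among the members counted in 5 alternatives. Its probe was kept through the wild-type arrays, and Cy5 was well above background on only 2 of the 4 PRA transgenic arrays. Replicate 4 was 1 of these 2, and the ratio is no measure of level, so these calls show no lower level. The share of all genes past the threshold in each alternative is not given here. Same-numbered animals did not deviate together (r = 0.10, -0.30 and 0.04), and the numbers are no pairing. Number 4 occurs only in the PRA transgenic group. The replicate block therefore gave the named genes the same log2 fold changes as leaving out PRA transgenic replicate 4. With the block, as without that array, the median of the members other than Psmb8, Psmb9 and Psmb10 was 0.11. Over the single arrays left out this median ranged from -0.030 to 0.11, the immunoproteasome minus constitutive difference between genotypes from -0.32 to -0.090, and the immunoproteasome minus other members against the reference from 0.95 to 1.07. The series table and Cy5 alone hold no ratio to the reference and gave no value for the last.

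Of 265 values of 13 named members and Psmc3ip, 254 kept their sign and their side of an adjusted p of 0.05, and 11 changed sign. On an unadjusted p of 0.05, 24 of the 265 changed side. Psmb8 (0.014 as reported) was -0.011 with normexp and loess, -0.074 with Cy5 alone and -0.026 with array weights, and ranged from -0.12 to 0.12 with arrays left out, below 0 without wild-type replicate 2 or PRA transgenic replicate 1. Psme1 (0.046) was -0.016 with Cy5 alone and ranged from -0.021 to 0.14, below 0 without the same 2 arrays. Psmb6 (0.069) ranged from -0.034 to 0.19, below 0 without PRA transgenic replicate 1 or 3. Psma8 (-1.26) was 0.019 with normexp and loess. The cause was not tested.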
